A study of Mus musculus with 2 samples.

Results

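Tenascins and chondroitin sulfate proteoglycans of the brain were followed through 9 of the 32285 genes counted in single nuclei of the mouse cerebellum at postnatal day 1. The genes were taken by symbol: Tnr, Tnc, Bcan, Vcan, Ncan, Hapln1, Ptprz1, Cspg4 and Cspg5. They had been selected on their UMI levels by class and library in earlier results of these data, so these levels are given as a description with no test. The control library came from littermates without Cre, whose genotype label reads Tox3f/f while the library name also allows Tox3f/+. The other library, conditional knockout or cKO, is labelled Nestin-cre;Tox3f/f. Both therefore carried a Tox3 allele flanked by loxP sites, and Nestin-Cre recombines in neural precursors and all their progeny, neurons and macroglia alike. Each library was 1 pool of 12 cerebella, so animals cannot be told apart within it and no difference has a replicate check. Nuclei were isolated from frozen tissue and counted with a 10x Genomics kit that reads transcripts from the 3′ end in unique molecular identifiers (UMIs).

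The brain has little fibrillar collagen, and its extracellular matrix is instead built on hyaluronan, a long sugar chain. Lecticans (brevican from Bcan, versican from Vcan, neurocan from Ncan) hold hyaluronan at one end and tenascins at the other, and link proteins such as the product of Hapln1 fasten the first contact. Tenascin-R (Tnr) is best known from oligodendrocytes and some neurons, tenascin-C (Tnc) from radial and Bergmann glia. Ptprz1 encodes a receptor phosphatase whose shed ectodomain is phosphacan, Cspg4 the NG2 proteoglycan of oligodendrocyte progenitors, and Cspg5 the transmembrane neuroglycan C. Their chondroitin sulfate chains restrain neurite growth and, around mature neurons, form perineuronal nets.

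Promoters are shown for 4 of the genes, because Tnr, Ptprz1 and Cspg4 had their highest level in the same class of nuclei but differed within it, while Tnc had its highest level in Bergmann-like glia. RefSeq entries on GRCm38.p6 were matched for 8 of the 9 genes, with Cspg5 unmatched. Each sequence runs from 250 bases before to 50 bases after the annotated start, 5′ to 3′ on the gene's strand. Capitals mark matches on either strand to a SOX core (ACAAAG), an NFI half-site (TTGGCA), an E-box (CAGCTG) or a TATA box (TATAAA).
Tnr, chr1:159523519-159523818, plus strand: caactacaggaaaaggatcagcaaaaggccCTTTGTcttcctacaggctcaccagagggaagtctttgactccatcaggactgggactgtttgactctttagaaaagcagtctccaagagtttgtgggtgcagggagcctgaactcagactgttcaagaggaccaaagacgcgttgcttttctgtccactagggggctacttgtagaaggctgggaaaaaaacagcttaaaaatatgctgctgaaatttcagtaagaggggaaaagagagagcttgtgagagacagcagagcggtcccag
Ptprz1, chr6:22875252-22875551, plus strand: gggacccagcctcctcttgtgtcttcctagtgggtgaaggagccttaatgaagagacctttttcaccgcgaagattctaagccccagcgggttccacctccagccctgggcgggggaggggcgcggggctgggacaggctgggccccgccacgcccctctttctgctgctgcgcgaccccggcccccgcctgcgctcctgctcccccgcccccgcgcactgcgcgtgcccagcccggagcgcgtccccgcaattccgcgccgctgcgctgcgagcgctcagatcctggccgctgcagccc
Cspg4, chr9:56864854-56865153, plus strand: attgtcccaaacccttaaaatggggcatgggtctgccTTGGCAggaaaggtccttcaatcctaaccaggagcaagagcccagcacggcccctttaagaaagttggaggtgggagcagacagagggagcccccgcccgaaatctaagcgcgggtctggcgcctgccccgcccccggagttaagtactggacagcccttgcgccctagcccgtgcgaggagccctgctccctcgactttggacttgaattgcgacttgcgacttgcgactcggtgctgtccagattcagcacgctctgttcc
Tnc, second of 2 annotated starts, chr4:64046887-64047186, minus strand: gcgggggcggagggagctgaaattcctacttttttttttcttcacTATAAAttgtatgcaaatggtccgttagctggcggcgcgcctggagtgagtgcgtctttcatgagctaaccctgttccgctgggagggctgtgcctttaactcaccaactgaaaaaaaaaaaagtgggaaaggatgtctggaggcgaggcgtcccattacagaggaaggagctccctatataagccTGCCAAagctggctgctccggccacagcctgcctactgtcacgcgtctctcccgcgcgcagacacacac

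Tnr held 1 match, a reversed SOX core starting 220 bases before the start. A SOX core was present in 18.7% of all 32817 promoters of this length. Cspg4 held 1 NFI half-site, as did 14.1% of promoters. The printed Tnc promoter held a reversed NFI half-site starting 19 bases before the start. It also held the letters TATAAA starting 205 bases before the start, a motif present anywhere in the window in 13.6% of promoters. Only exact matches were marked, so the similar letters tatataag just before the reversed NFI half-site, nearer to the start, stay in lower case. Ptprz1 held none of the 4 motifs in this window and 29 CpG dinucleotides against a median of 7 over all promoters. Tnr held 3 CpG dinucleotides, Tnc 16 and Cspg4 17. A match is a description of letters and not of a bound site. By GENCODE annotation on GRCm38 all 9 are protein-coding genes, and among them Tnr is the longest at 407961 bases (chr1:159523769-159931729). Ptprz1 spans 177415 bases on chromosome 6, Cspg4 34838 on chromosome 9 and Tnc 87231 on chromosome 4.

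The deposited control library held 4857 barcodes and 22325208 UMIs, and the cKO-labelled library 6946 barcodes and 33726533 UMIs, with medians of 4072 and 4161.5 UMIs per nucleus. After filters 4667 and 6555 nuclei remained. A total of 9 barcodes occurred in both libraries. Clusters with few UMIs took in 21.7% and 10.6% of kept nuclei. Tox3 itself was not lower in the cKO-labelled library, at 104 UMIs per 1000000 UMIs (CPM) in control and 118 CPM there, so its counts do not check the label, and the second library is called cKO-labelled throughout. Where the deleted stretch of Tox3 lies is not given in the sources used here. Classes are clusters built without the 9 genes and named "-like" from marker lists. Comparisons of classes took those of at least 20 nuclei in each library. A fibroblast-like and mural-like class of 8 and 13 nuclei was left out by this minimum. GNP denotes granule neuron progenitors, GN granule neurons and CN glutamatergic neurons of the cerebellar nuclei. Between the libraries, GNP-like nuclei made up 11.0% and 1.78% of kept nuclei, neurons of 5 classes 47.3% and 59.3%, and macroglia (oligodendrocyte-like, astrocyte-like and Bergmann-like) were 420 of 4667 and 1119 of 6555 nuclei.

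The oligodendrocyte-like class, where 5 of the 9 genes had their highest control level above background, was also the highest class for 9.34% of 20214 genes. It counted 76 control nuclei (1.63%, exact binomial 95% interval 1.29 to 2.03) and 251 nuclei of the cKO-labelled library (3.83%, 3.38 to 4.32). Its label held against its markers. Pdgfra stood at 1193 and 989 CPM and Lhfpl3 at 5428 and 5643 CPM, and the 10 lineage markers summed to 7282 and 8178 CPM. Bergmann markers summed to 502 and 592 CPM in it and GN markers to 326 and 202 CPM. In the astrocyte-like class its own markers summed to 2052 and 2223 CPM and Bergmann markers to 2096 and 2478 CPM, so these 2 classes shade into each other. Aqp4, a water channel gene of astrocytes, stood there at 259 and 181 CPM. In Bergmann-like nuclei their own markers summed to 5793 and 6026 CPM and oligodendrocyte markers to 1224 and 996 CPM. Intervals throughout are exact 95% intervals of counting error only, and cover neither animals nor libraries.

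Over whole libraries, Tnr and Ptprz1 were more than 1.5-fold higher and Hapln1 more than 1.5-fold lower in the cKO-labelled library. Tnr stood at 55.0 CPM in control (1127 UMIs) and 117 CPM in the cKO-labelled library (3539 UMIs), a ratio of 2.13 (interval 1.99 to 2.28). Ptprz1 stood at 264 and 405 CPM, a ratio of 1.53 (1.48 to 1.58). Hapln1 stood at 7.22 and 2.82 CPM, a ratio of 0.390 (0.295 to 0.513). These are 3 of 9 genes past 1.5-fold, where 14.8% of the 20214 genes with at least 20 UMIs were past it (7.07% higher and 7.74% lower). Past 2-fold were Tnr and Hapln1, 2 of 9, against 4.56% of all genes (2.08% higher and 2.48% lower). The ratio was 1.47 (1.31 to 1.65) for Bcan, 1.38 (1.13 to 1.69) for Cspg4 and 1.35 (1.28 to 1.43) for Cspg5. It was 1.06 (1.02 to 1.10) for Tnc, 1.12 (1.08 to 1.16) for Vcan and 1.13 (1.07 to 1.20) for Ncan. The median log2 ratio was 0.43 over the 9 genes and -0.02 over all genes tested.

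Much of this spread moved with the mix of classes. In a summed library, more nuclei of a class and more RNA per nucleus cannot be told apart, so the levels of each class in the cKO-labelled library were averaged with the control share of UMIs per class. Held at the control mix, the ratio was 1.39 for Tnr, 1.11 for Ptprz1, 1.16 for Cspg5, 1.02 for Bcan and 0.996 for Ncan. It was below 1 for Vcan (0.958), Cspg4 (0.888) and Tnc (0.802), and 0.460 for Hapln1. With the levels held and only the mix changed, the ratio was 1.49 for Cspg4, 1.43 for Tnr, 1.40 for Ptprz1, 1.39 for Bcan and 1.37 for Tnc. Tnr was thus the 1 gene above 1.3 on both counts.

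**Figure D1:**
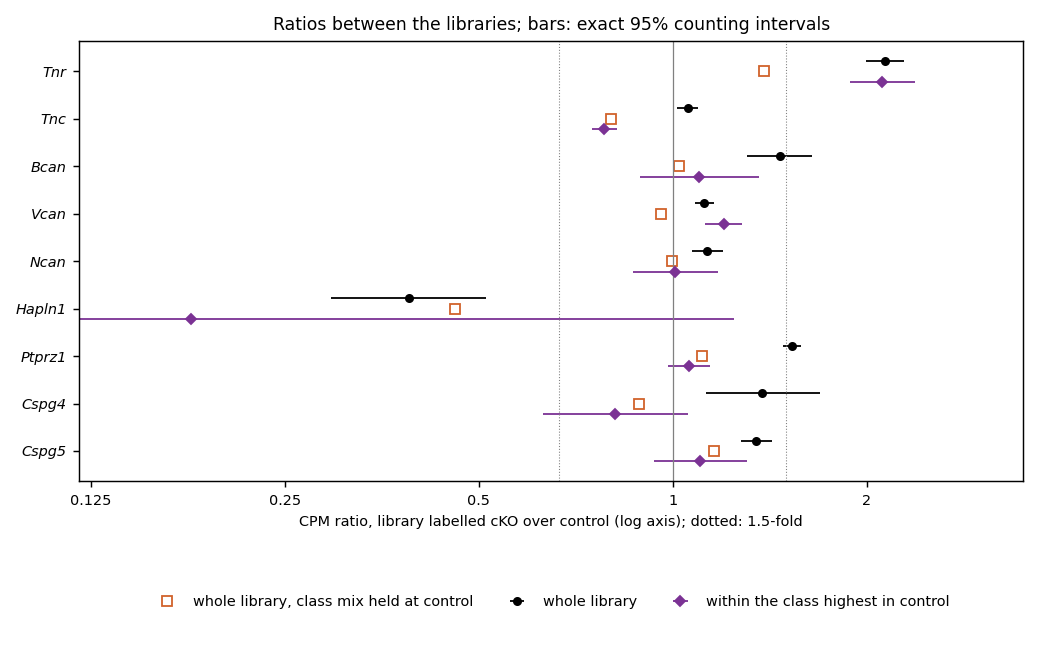
Ratio of CPM in the cKO-labelled library to control for each gene on a log axis, over the whole library (circles), within the class highest in control (diamonds) and over the whole library with the class mix held at control (squares, no interval), with bars for exact 95% counting intervals, cut at the left edge for Hapln1. Tnr sits near 2.1 both over the library and within its class, while Ptprz1 moves from 1.53 to 1.06.

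Tnr, which encodes the trimeric tenascin-R that bridges lecticans, had its highest level in the oligodendrocyte-like class. Its level there was 972 CPM (872 to 1081) in control from 343 UMIs and 2055 CPM in the cKO-labelled library from 2031 UMIs. The ratio was 2.11 (1.88 to 2.38). By this class alone, 30.4% of all Tnr UMIs were carried in control and 57.4% in the cKO-labelled library, while neurons, with many more nuclei, carried 51.4% and 33.6%. After thinning each nucleus of at least 1000 UMIs to 1000 UMIs, 48.7% and 64.5% of its nuclei held a Tnr UMI (84.2% and 89.6% unthinned). The shares were 1.92% and 0 of microglia-like nuclei, taken as a class without Tnr. Microglia-like nuclei had medians of 2917.5 and 2546 UMIs and oligodendrocyte-like nuclei 4336.5 and 3772 UMIs.

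Among the named neuronal classes Tnr was, by cluster, highest in the CN-like class, at 88.9 CPM in control and 123 CPM in the cKO-labelled library (ratio 1.38, 1.10 to 1.75). The Purkinje-like class followed at 77.1 and 75.1 CPM (0.974, 0.829 to 1.15), and the GABAergic-like interneuron class at 53.2 and 51.2 CPM (0.963, 0.789 to 1.18). In control the intervals of the CN-like and Purkinje-like classes overlapped. By marker gates, which class nuclei one by one, CN-like nuclei held 72.2 and 69.5 CPM, from 15 and 26 UMIs. Purkinje-like nuclei held 83.1 and 86.4 CPM by gates, the opposite order. Unnamed cluster 19, of 54 and 98 nuclei, stood higher than these classes at 142 and 152 CPM. Within the Purkinje-like class the clusters differed: cluster 6 held 117 and 123 CPM, cluster 10 held 18.4 and 18.8 CPM. Within the CN-like class cluster 16 held 96.1 and 132 CPM, and cluster 21 held 49.5 and 45.9 CPM. GN-like nuclei held 15.5 and 10.9 CPM, a ratio of 0.701 (0.503 to 0.973), and GNP-like nuclei 6.85 and 23.1 CPM from 14 and 10 UMIs (3.37, 1.34 to 8.17). By marker gates, nucleus by nucleus, GN-like nuclei held 19.1 and 19.6 CPM and GNP-like nuclei 15.4 and 18.5 CPM, closer together than by cluster. Of the 103 gated GNP-like nuclei of the cKO-labelled library, however, 38 lay in the GNP-like class. The microglia-like background was 5.75 and 6.92 CPM, and the intervals of 4 classes in control and 6 in the cKO-labelled library lay above its interval.

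In the remaining macroglia Tnr was low, and in the cKO-labelled library 1 nucleus of each class held a large part of it. No control nucleus of either class held more than 3 Tnr UMIs. In the Bergmann-like class it stood at 33.8 and 36.7 CPM (1.09, 0.720 to 1.67), but 1 nucleus of the cKO-labelled library held 43 of the 78 UMIs there, and the same nucleus held 7 of the 10 oligodendrocyte markers in 44 UMIs. Without the highest nucleus of each library the ratio was 0.533 (0.320 to 0.888). In the astrocyte-like class Tnr stood at 27.9 and 53.9 CPM, where 1 nucleus with 6 of the 10 oligodendrocyte markers held 28 of 60 UMIs. The ratio there was 1.93 (1.07 to 3.75), and 1.29 (0.634 to 2.84) without the highest nuclei. In the oligodendrocyte-like class it was 2.18 without the highest nucleus of each library.

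**Figure D2:**
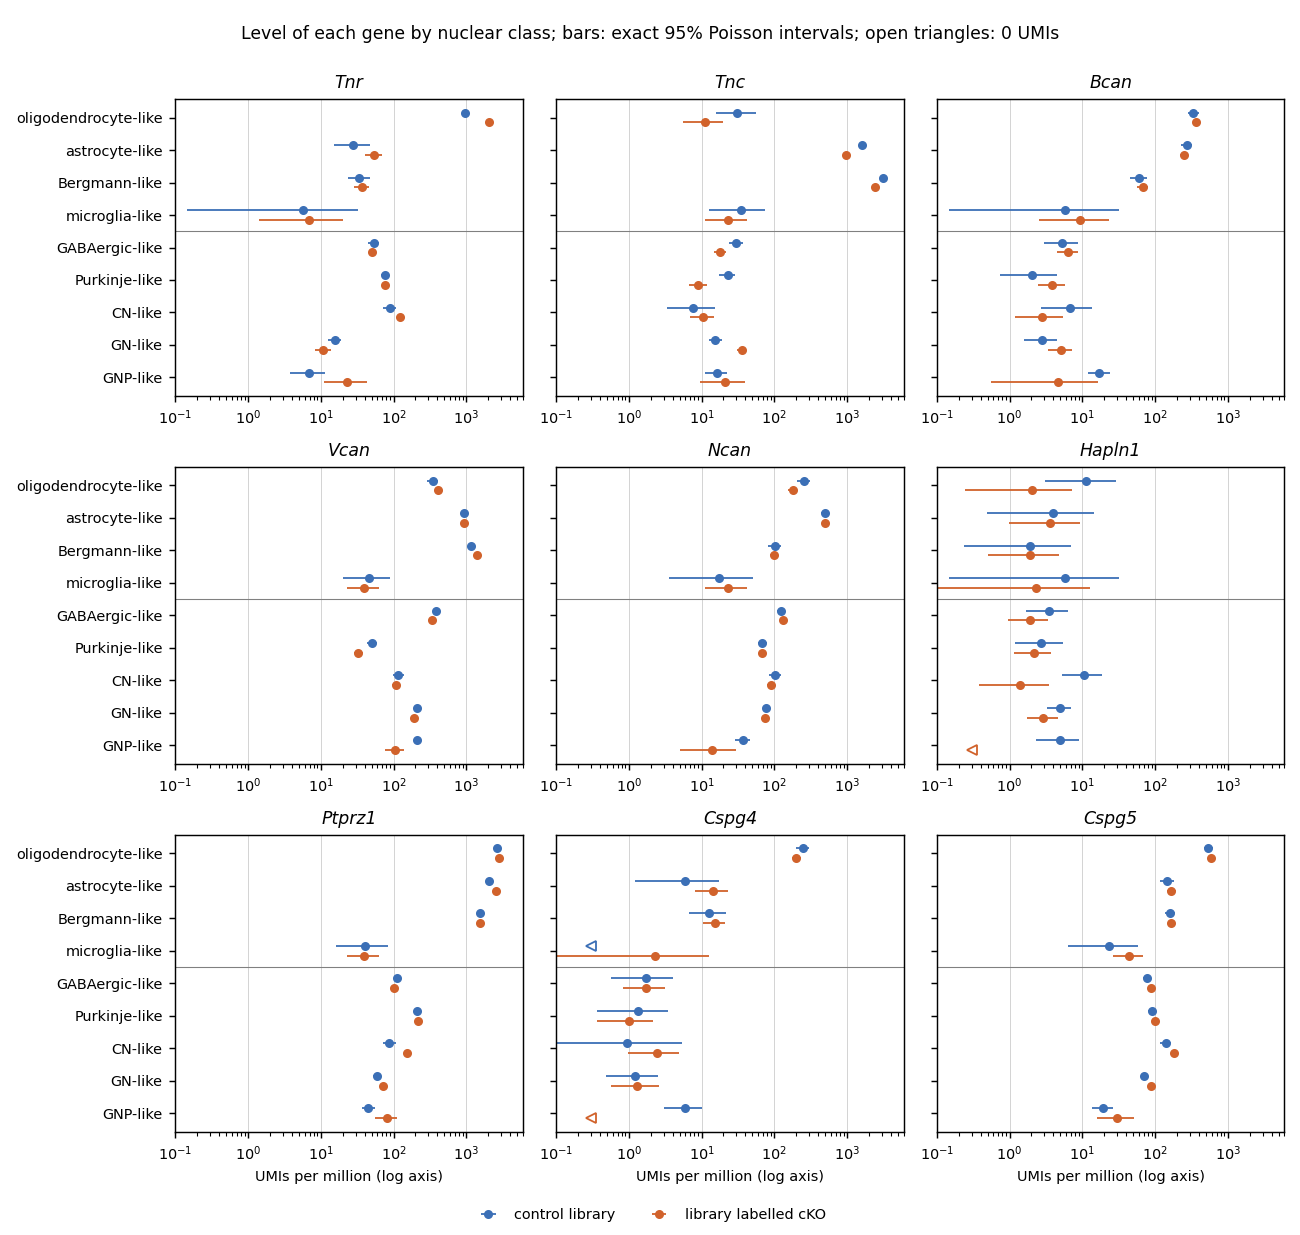
Level of each gene (CPM, log axis) in 9 of the 10 classes of nuclei in the control library (blue) and the cKO-labelled library (orange), with exact 95% Poisson intervals as bars; open triangles mark 0 UMIs and a grey line separates glia-like from neuronal classes. Tnr and Cspg4 peak in the oligodendrocyte-like class, Tnc in the Bergmann-like class, and Hapln1 stays under 12 CPM in every class shown.

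Within the oligodendrocyte-like class, Tnr was highest in nuclei with markers of later stages. Nuclei with more UMIs of Pdgfra, the growth factor receptor of progenitors, than of Enpp6, Bmp4, Gpr17, Mbp and Mag together were set against those with more of the latter, called committed here. The Pdgfra side took in 63 of 76 nuclei in control (82.9%) and 181 of 251 in the cKO-labelled library (72.1%). The committed side held 10 (13.2%) and 53 (21.1%). Tnr was 775 CPM on the Pdgfra side and 2082 CPM on the committed side in control, and 975 and 5579 CPM in the cKO-labelled library. Committed over Pdgfra-side nuclei, the ratio was 2.69 (2.09 to 3.44) in control and 5.72 (5.21 to 6.29) in the cKO-labelled library. Between the libraries it was 1.26 (1.08 to 1.47) on the Pdgfra side and 2.68 (2.17 to 3.35) on the committed side, with medians of 7 and 16 Tnr UMIs per committed nucleus.

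The committed nuclei of the libraries were not alike. In control they held 27 UMIs of Gpr17, a receptor of newly committed progenitors, and 6 of Mbp, and Enpp6, Bmp4 and Mag were at 0. In the cKO-labelled library they held 151 UMIs of Gpr17, 289 of Mbp, 165 of Enpp6, 30 of Bmp4 and 29 of Mag. Enpp6 marks newly formed oligodendrocytes, and Mbp and Mag encode myelin proteins.

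A split on Enpp6, Bmp4 or Mag alone, 3 genes picked after they had been seen at 0 in the committed nuclei of control, set apart 27 of 251 nuclei of the cKO-labelled library (10.8%) and, by that choice, 0 of 76 in control. Those 27 nuclei carried 1038 Tnr UMIs, 51.1% of the class. Their level was 7691 CPM, with a median of 36 and a maximum of 86 Tnr UMIs per nucleus, against 1164 CPM and a median of 3 in the other 224 nuclei, a ratio of 6.61 (6.05 to 7.22). The other 224 nuclei and the 76 of control stood at 1164 and 972 CPM. As the choice of genes takes nuclei from 1 library alone, these values describe where the Tnr UMIs lay and do not compare the libraries.

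**Figure D3:**
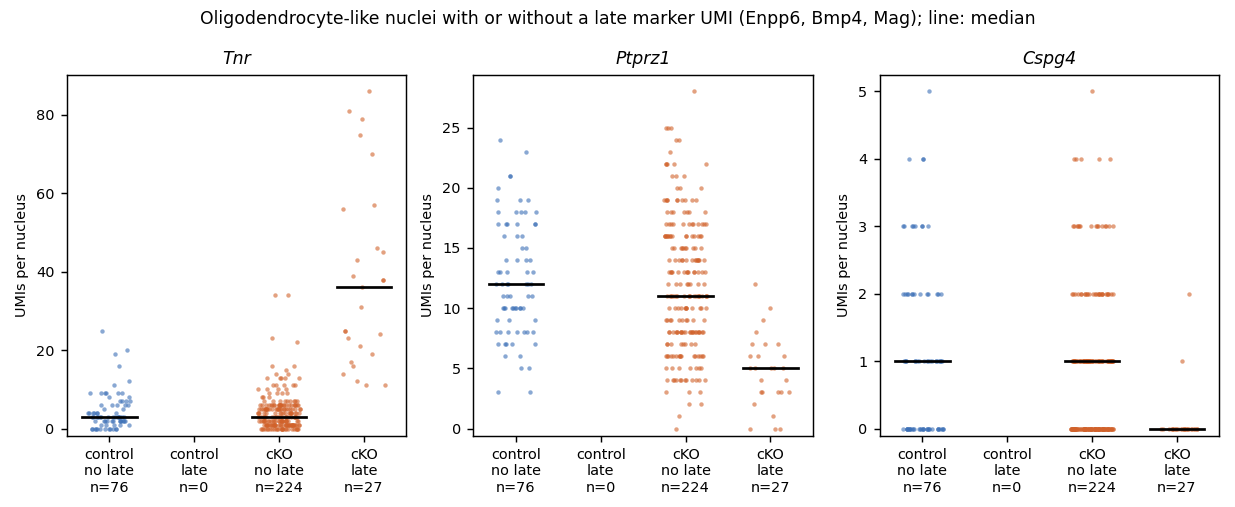
UMIs of Tnr, Ptprz1 and Cspg4 in each oligodendrocyte-like nucleus, for nuclei without and with a UMI of a late marker (Enpp6, Bmp4 or Mag) in the control library (blue) and the cKO-labelled library (orange), with black lines at the medians. In the 27 late nuclei of the cKO-labelled library the Tnr median is 36, and it is 3 in the 76 control nuclei, none of which held a late marker.

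Cspg4, Cspg5, Ptprz1, Ncan and Bcan went the other way in the same nuclei. In the cKO-labelled library, late-marker over other oligodendrocyte-like nuclei, the ratio was 0.0973 (0.0199 to 0.288) for Cspg4, 0.110 (0.0523 to 0.203) for Cspg5, 0.305 (0.254 to 0.365) for Ptprz1, 0.339 (0.152 to 0.658) for Ncan and 0.606 (0.408 to 0.872) for Bcan. Vcan did not differ beyond counting error, at 1.03 (0.766 to 1.37). Cspg4 was at 22.2 CPM in the late-marker nuclei, from 3 UMIs, and 229 CPM in the others, and Cspg5 at 74.1 and 676 CPM. Tnc and Hapln1 had 0 UMIs in the late-marker nuclei. By the split on Pdgfra, the committed over Pdgfra-side ratios in the cKO-labelled library were 0.318 for Cspg4, 0.395 for Cspg5, 0.487 for Ncan, 0.515 for Ptprz1 and 0.857 for Bcan, the last with an interval that included 1. In control they were 0.873 for Cspg4, 0.692 for Cspg5, 0.850 for Ncan and 1.04 for Ptprz1, all with intervals that included 1, over 10 committed nuclei. The difference between the libraries in these ratios was not tested.

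**Figure D4:**
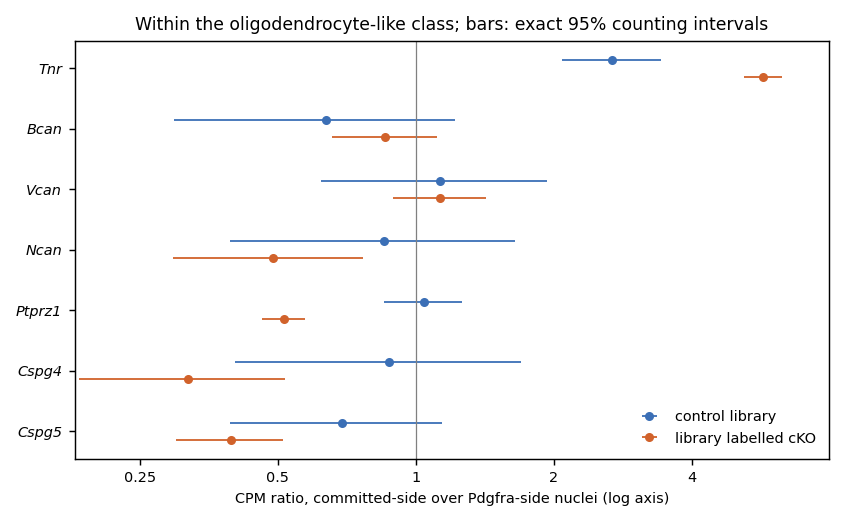
Ratio of CPM in committed over Pdgfra-side nuclei of the oligodendrocyte-like class for 7 genes (log axis) in the control library (blue) and the cKO-labelled library (orange), with exact 95% counting intervals as bars. Tnr lies above 1 in both libraries, while the intervals of Ptprz1, Cspg4, Cspg5 and Ncan lie below 1 in the cKO-labelled library and include 1 in control.

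Nuclei with a UMI of Mki67 or Top2a, genes of dividing cells, were 35 of 76 (46.1%) in control and 71 of 251 (28.3%) in the cKO-labelled library. Tnr was lower in dividing than in other oligodendrocyte-like nuclei of both libraries, with ratios of 0.752 (0.602 to 0.937) and 0.622 (0.559 to 0.691). Between the libraries Tnr was 829 and 1454 CPM in dividing nuclei and 1103 and 2338 CPM in the others. In the cKO-labelled library the dividing nuclei held 460 Tnr UMIs and the others 1571. The 27 late-marker nuclei held 1038 Tnr UMIs and were not set apart in this split. In Bergmann-like nuclei, Vcan was lower in dividing nuclei of both libraries, at 0.731 (0.643 to 0.830) and 0.674 (0.615 to 0.737), while Tnc stood at 1.09 and 1.06.

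Tnc, the tenascin of radial glia and their descendants, was a gene of the Bergmann-like and astrocyte-like classes, which carried 71.7% and 17.9% of its control UMIs. In Bergmann-like nuclei it stood at 3079 CPM in control (3187 UMIs) and 2413 CPM in the cKO-labelled library (5123 UMIs), a ratio of 0.784 (0.750 to 0.819). In astrocyte-like nuclei it stood at 1588 and 978 CPM, a ratio of 0.616 (0.561 to 0.675), and past 1.5-fold. Over whole libraries its ratio was 1.06, beside the larger share of macroglia in the cKO-labelled library. A Tnc UMI was present in 85.0% and 76.4% of Bergmann-like nuclei after thinning, and in 1.92% and 1.99% of microglia-like nuclei.

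Among named classes of at least 20 nuclei in each library, only these 2 had Tnc intervals wholly above that of the microglia-like class. The microglia-like interval reached 75.2 CPM in control and 42.4 CPM in the cKO-labelled library. The fibroblast-like and mural-like class, of 8 and 13 nuclei, held 0 and 33 Tnc UMIs, at 576 CPM in the cKO-labelled library. In GN-like nuclei Tnc was 15.5 and 35.7 CPM (2.30, 1.79 to 2.98) and in Purkinje-like nuclei 22.8 and 8.97 CPM (0.394, 0.270 to 0.573), and these values lay within the microglia-like intervals or below them, around 34.5 and 23.1 CPM. By marker gates GN-like nuclei held 49.9 and 61.7 CPM of Tnc and Purkinje-like nuclei 71.4 and 36.2 CPM. The directions were those by cluster, with the libraries closer together. In the GABAergic-like class 1 control nucleus held 27 of 86 UMIs, and the ratio was 0.605 with it and 0.765 (0.546 to 1.08) without the highest nuclei. Oligodendrocyte-like nuclei held 11 UMIs in each library, 31.2 and 11.1 CPM, also at the background.

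Among the lecticans, Vcan encodes versican, the large lectican of immature brain. It was highest in Bergmann-like nuclei at 1174 CPM in control and 1408 CPM in the cKO-labelled library, a ratio of 1.20 (1.12 to 1.28). Astrocyte-like nuclei followed at 928 and 918 CPM (0.989, 0.886 to 1.11), and GABAergic-like nuclei at 381 and 334 CPM (0.878, 0.815 to 0.946). Versican transcripts were spread widely: neurons carried 51.0% of them in control and 43.3% in the cKO-labelled library.

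Vcan also separated clusters of the GABAergic-like class. Clusters 7, 9, 12 and 15 stood at 479, 699, 251 and 49.1 CPM in control and at 450.4, 640.3, 199 and 53.6 CPM in the cKO-labelled library, in the same order in both. GNP-like nuclei held 212 and 104 CPM, a ratio of 0.491 (0.353 to 0.668) from 433 and 45 UMIs, but 303 and 490.5 CPM by marker gates, the opposite direction. In the cKO-labelled library 38 of the 117 GNP-like nuclei also passed the gate, among 103 nuclei that passed it. Gated GNP-like nuclei held Tnc at 268 CPM in control and 958 CPM in the cKO-labelled library, against 16.1 and 20.8 CPM by cluster. The gated set thus took in nuclei of other clusters, and it does not settle the direction in GNP-like nuclei. The GN-like class stood at 213 and 191 CPM (0.897, 0.827 to 0.972). Purkinje-like nuclei held 51.0 and 32.6 CPM (0.639, 0.514 to 0.796), whose control interval overlapped that of the microglia-like class at 46.0 CPM. By marker gates Purkinje-like nuclei held 76.6 and 73.1 CPM of Vcan, closer together than by cluster. The gates took in 322 and 878 nuclei, among them 274 of the 292 and 711 of the 719 nuclei of the class.

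Bcan, which encodes brevican, was found at 337 and 370.4 CPM in oligodendrocyte-like nuclei (1.10, 0.891 to 1.36) and at 273 and 249.8 CPM in astrocyte-like nuclei (0.915, 0.743 to 1.13). Bergmann-like nuclei held 59.9 and 67.4 CPM, and neurons 3.74 and 4.80 CPM, near the microglia-like 5.75 and 9.22 CPM. In no class above background did Bcan differ beyond counting error between the libraries, beside a whole-library ratio of 1.47.

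Ncan, which encodes neurocan, was highest in astrocyte-like nuclei at 500 and 504 CPM (1.01, 0.867 to 1.17). It was widely spread, with the intervals of 8 of 9 classes above that of the microglia-like class in both libraries, and neurons carried 59.4% and 60.2% of its UMIs. GABAergic-like nuclei stood at 122 and 134 CPM, Bergmann-like nuclei at 101.4 and 99.9 CPM and GN-like nuclei at 77.5 and 75.4 CPM. Oligodendrocyte-like nuclei held 252 and 179 CPM, a ratio of 0.710 (0.547 to 0.927), and GNP-like nuclei 36.7 and 13.9 CPM from 75 and 6 UMIs (0.378, 0.134 to 0.862). By marker gates GNP-like nuclei held 40.4 and 61.6 CPM of Ncan, the opposite direction. Only 38 of the 103 gated nuclei of the cKO-labelled library lay in the GNP-like class, so the direction was not settled.

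Hapln1, the link protein gene beside Vcan on chromosome 13, was near the limit of detection. No class stood above the microglia-like interval. Among classes of at least 20 nuclei in each library the highest level was 11.3 CPM from 4 UMIs. The fibroblast-like and mural-like class held 57.7 and 52.4 CPM, from 2 and 3 UMIs. Neurons held 59 and 49 UMIs, 4.41 and 2.26 CPM, a ratio of 0.513 (0.344 to 0.762). The clusters with few UMIs carried 39.2% of its control UMIs, at 84.0 CPM, against 35.4 CPM in the cKO-labelled library. These levels came largely from different clusters. Cluster 1 held 987 control nuclei and 62 of the cKO-labelled library, and cluster 5 held 26 and 630. Within each cluster the interval of the ratio included 1, at 0.556 (0.0657 to 2.10) and 0.455 (0.104 to 4.12). Nuclei of these clusters had medians of 619 and 574.5 UMIs, and which cells they came from was not tested. GNP-like nuclei of the cKO-labelled library had 0 UMIs of 432585.

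Of the cell-surface proteoglycans, Ptprz1 had its highest level in oligodendrocyte-like nuclei, at 2670 and 2832 CPM (1.06, 0.985 to 1.14). Astrocyte-like nuclei stood at 2064 and 2532 CPM (1.23, 1.14 to 1.32) and Bergmann-like nuclei at 1541 and 1559 CPM (1.01, 0.953 to 1.07). After thinning, 90.8% and 88.8% of oligodendrocyte-like nuclei held a Ptprz1 UMI, against 7.69% and 5.96% of microglia-like nuclei. Of all Ptprz1 UMIs 66.0% and 73.1% lay in macroglia. In neurons it was 106 and 130.2 CPM (1.23, 1.16 to 1.31), with CN-like nuclei at 88.0 and 151 CPM (1.72, 1.37 to 2.18). By marker gates CN-like nuclei held 62.6 and 77.5 CPM of Ptprz1, from 13 and 29 UMIs, with overlapping intervals. Purkinje-like nuclei held 209 and 218 CPM, and again cluster 6 (282 and 323 CPM) stood above cluster 10 (104 and 93.98 CPM).

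Cspg4 had 59.6% and 66.9% of its UMIs in oligodendrocyte-like nuclei. It stood there at 247 and 200.4 CPM, a ratio of 0.812 (0.628 to 1.06), from 87 and 198 UMIs. Among classes of at least 20 nuclei in each library, no other was above the microglia-like interval, from 0 and 1 UMIs. That interval reached 21.2 CPM in control and 12.8 CPM in the cKO-labelled library, so it cannot place low levels. Bergmann-like nuclei held 12.6 and 15.1 CPM. Joined with astrocyte-like nuclei, they stood at 7.33 (3.53 to 15.1) and 10.0 (6.29 to 16.2) times the level of neurons, from 16 and 48 UMIs. The fibroblast-like and mural-like class, of 8 and 13 nuclei, held 0 and 4 UMIs. Its 69.9 CPM (19.0 to 179) in the cKO-labelled library lay above the microglia-like interval. Counts were low, since 21.1% and 19.5% of oligodendrocyte-like nuclei held a UMI after thinning.

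Cspg5 was highest in the same class at 539 and 594 CPM (1.10, 0.935 to 1.31), but 56.1% and 57.8% of its UMIs lay in neurons. CN-like nuclei stood at 139.6 and 181 CPM (1.29, 1.08 to 1.57), GN-like nuclei at 71.5 and 87.1 CPM (1.22, 1.07 to 1.39) and Purkinje-like nuclei at 91.7 and 98.4 CPM (1.07, 0.927 to 1.24). Over all neurons it was 81.2 and 103 CPM, a ratio of 1.26 (1.18 to 1.36). Bergmann-like nuclei held 161 and 167 CPM.

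**Figure D5:**
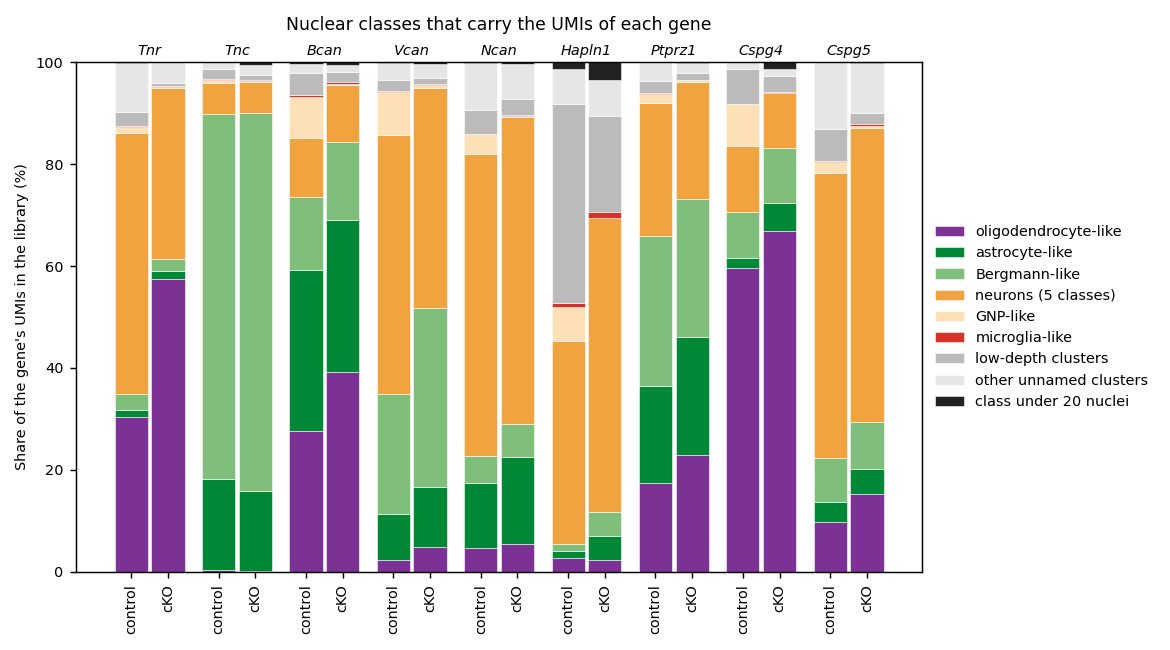
Share of each gene's UMIs (per cent, from 0 to 100) that lay in each class of nuclei, 1 bar for the control library and 1 for the cKO-labelled library; the 5 neuronal classes are joined, and grey and black parts are low-depth clusters, other unnamed clusters and a class of under 20 nuclei. The oligodendrocyte-like part of Tnr grows from 30.4% to 57.4%, and the Bergmann-like and astrocyte-like classes carry 71.7% and 17.9% of the control UMIs of Tnc.

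Set against neurons, the macroglia-like classes together were at least 2-fold higher for 8 of the 9 genes in both libraries, where 16.3% of the 16609 genes compared in control and 17.5% in the cKO-labelled library were. As the 9 genes were selected on levels by class, this count is a description. The ratio was 107 and 75.5 for Tnc, 45.0 and 38.8 for Bcan, 38.4 and 39.5 for Cspg4 and 17.9 and 16.2 for Ptprz1. It was 4.83 and 6.12 for Vcan, 4.79 and 9.35 for Tnr, 2.81 and 2.60 for Cspg5 and 2.70 and 2.47 for Ncan, and 0.960 and 1.05 for Hapln1. For Tnr, oligodendrocyte-like nuclei alone stood at 22.5 and 37.4 times the level of neurons. Astroglia-like nuclei were below neurons for Tnr, at 0.737 (0.539 to 0.987) and 0.777 (0.647 to 0.927). Oligodendrocyte-like over astroglia-like nuclei, the tenascins lay at opposite ends, with 30.5 and 48.2 for Tnr and 0.0120 and 0.00580 for Tnc. Of all genes 9.42% in control and 9.82% in the cKO-labelled library were at least 2-fold higher in the oligodendrocyte-like nuclei there, and 18.8% and 17.1% lower. Astroglia-like nuclei alone exceeded neurons 131 and 98.4 times for Tnc (background 16.8% and 18.2%), and oligodendrocyte-like nuclei alone exceeded them 174 and 136 times for Cspg4 (13.7% and 12.7%).

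Counts of genes past 1.5-fold within classes stayed close to the background. In oligodendrocyte-like nuclei 2 of the 8 genes with at least 20 UMIs were past it, Tnr higher and Tnc lower, where 25.5% of all genes were (14.1% higher, 11.4% lower). In astrocyte-like nuclei 2 of 7 were past it, Tnr higher and Tnc lower, against 20.8% (11.8% higher, 8.95% lower). In Bergmann-like nuclei 0 of 8 were, against 16.6% (9.42% higher, 7.14% lower). In Bergmann-like and astrocyte-like nuclei joined as astroglia 0 of 8 were, against 14.8% (8.37% higher, 6.44% lower). In neurons 1 of 9 was, Hapln1, lower, against 11.8% (5.8% higher, 6.04% lower).

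Classing nuclei one by one with marker gates, as an alternative to clusters, kept the highest class for 7 of 9 genes in control and for 7 of 9 in the cKO-labelled library. Exceptions were Vcan in control, Ptprz1 in the cKO-labelled library (both astrocyte-like by gates, at 1071 and 2701 CPM) and Hapln1 in both. By gates Tnr stood at 927 and 2117 CPM in oligodendrocyte-like nuclei.

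The genes whose control pattern was most like each member's were found among 10635 genes by Pearson's r of log2(CPM + 10) over the 10 classes, which share their libraries. For Tnr these were Shc4 (r = 0.937, 0.882 in the cKO-labelled library), Epn2 (0.930, 0.956) and Ppp1r16b (0.928, 0.915). For Tnc they were Gm6145 (0.986, 0.920), the astroglial enzyme gene Aldh1l1 (0.985, 0.990) and Mlc1 (0.976, 0.970). Ptprz1 lay nearest to Stk32a (0.982, 0.962), Mamld1 (0.960, 0.881) and Hepacam (0.955, 0.906), and Bcan to Asrgl1 (0.961, 0.928), Trib2 (0.956, 0.775) and Stard13 (0.952, 0.946). Vcan lay nearest to Pabpn1 (0.945, 0.743), Gpm6b (0.937, 0.941) and Igsf8 (0.935, 0.945), and Ncan to Smoc1 (0.952, 0.881), Atp1b2 (0.924, 0.649) and Ddhd1 (0.922, 0.808). Cspg4 lay nearest to Rapgef1 (0.949, 0.809), Cfap20 (0.940, 0.920) and Mmp15 (0.935, 0.933), and Cspg5 to Gm47591 (0.956, 0.857), Pde4b (0.928, 0.895) and Nlgn3 (0.924, 0.935). For Hapln1 the nearest genes did not keep their likeness, with r = 0.922 and -0.20 for Psmf1, 0.862 and 0.367 for Dynlt1c and 0.820 and 0.0806 for Higd1a.

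Further genes of the pathway were read from 6 lists of 59 genes, over whole libraries and against the same 14.8% past 1.5-fold. Of the enzymes that remodel the matrix, 4 of 7 lectican-cleaving proteases and their inhibitor were past it. Adamts1, which cleaves versican, stood at 21.9 and 5.50 CPM (0.252, 0.209 to 0.301), and its highest class was GNP-like, at 91.0 and 41.6 CPM. Adamts5 stood at 7.71 and 12.3 CPM (1.59, 1.32 to 1.93) and Adamts9 at 16.1 and 25.4 CPM (1.58, 1.39 to 1.81), both highest in Bergmann-like nuclei, where Adamts5 held 58.0 and 54.6 CPM and Adamts9 173 and 219 CPM. Adamts8 stood at 1.61 and 2.45 CPM (1.52, 0.998 to 2.37), and Timp3, the inhibitor and the gene of this list with the most UMIs, at 419.8 and 468 CPM. The median log2 ratio was 0.16.

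Of 7 hyaluronan genes 1 was past 1.5-fold, Cemip, a hyaluronan-degrading protein and the list's highest in control, at 79.3 and 38.8 CPM (0.490, 0.454 to 0.528). The median log2 ratio was 0.08.

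Genes of chondroitin chain synthesis were past 1.5-fold in 0 of 12, with a median log2 ratio of 0.16. The highest in control was Chsy3, a chain-extending enzyme, at 176 and 242 CPM (1.37, 1.32 to 1.43), with Purkinje-like nuclei at 632 and 718 CPM. Sulfation and epimerization genes were past it in 3 of 9, all higher, with a median of 0.06: Chst3 at 5.47 and 8.32 CPM (1.52, 1.21 to 1.92), Chst7 at 8.64 and 13.7 CPM (1.58, 1.32 to 1.90) and Dse at 10.7 and 17.2 CPM (1.60, 1.37 to 1.88). Ust, highest in control, stood at 105 and 108 CPM. Dse was highest in microglia-like nuclei at 178 and 415 CPM, a class whose share of nuclei was 1.16% and 2.30%.

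Receptors and ligands of the members were past 1.5-fold in 2 of 16, with a median log2 ratio of -0.09. Itga9, an integrin subunit that binds tenascin-C, stood at 13.7 and 23.9 CPM (1.75, 1.52 to 2.01), highest in microglia-like nuclei, and Itgav at 33.6 and 21.1 CPM (0.630, 0.565 to 0.703). Ptn, which encodes pleiotrophin, a ligand of the Ptprz1 product, was the highest of the list at 754 and 666 CPM, with astrocyte-like nuclei at 4040.4 and 4519 CPM. Of the other tenascins, lecticans and link proteins, 2 of 4 with enough UMIs were past it, with a median of 0.58. These were Acan at 0.781 and 1.26 CPM and Hapln3 at 1.07 and 1.79 CPM, whose intervals included 1. They and Adamts8 were named after their values had been seen. The highest in control was Tnxb at 1.46 and 2.02 CPM (1.38, 0.878 to 2.22).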

How the data were processed

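Transcripts were counted in single nuclei of 2 libraries, control and cKO, each from 12 pooled cerebella at postnatal day 1. The deposited values are raw UMI counts per gene and nucleus, made by the authors with Cell Ranger 7.0.1 after bcl2fastq on mm10, per the submitters' processing notes; the correction for free RNA that the authors describe (SoupX) was not applied here. Nuclei over 25% mitochondrial UMIs (1 and 5) and the top 0.8% of Scrublet scores per 1000 barcodes (scanpy 1.11.5; 189 and 386) were removed. The authors also removed 1 cluster of doublets and poor nuclei after clustering, and no cluster was removed here. Clusters (24, of which 20 were named) came from Seurat 5.3.0 in R 4.3.3, with 3000 variable features, integration over 30 dimensions and resolution 0.8, and with the 9 genes left out of the features. A name needed at least 3 markers in 10% of nuclei at 2-fold over the other clusters, by a rule written once clusters were known, and 2 clusters of low depth and 2 whose leading genes did not bear out a name were left unnamed.

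With 1 library per group there was no test, and nuclei were not used as replicates. CPM are UMIs per 1000000 UMIs of the class. Intervals are exact 95% ones (Poisson for CPM, Clopper-Pearson for shares, conditional binomial for ratios). Fold calls needed 20 UMIs over both libraries. Named were all 9 members, the 3 genes of at least 200 control UMIs nearest to each over classes, and from each list the highest gene and those past 1.5-fold with an interval that left out 1. The members, lists and splits were chosen with earlier results of these data known, and the late-marker split, the class-mix calculation and the leaving out of highest nuclei after these data had been seen. From the list for the split by Pdgfra, 1 committed marker was left out, and it and 1 neuronal class are not reported here. Median UMIs were 4072 and 4161.5 per nucleus, so genes at a few CPM rest on few UMIs, and shares were compared after thinning to 1000 UMIs. Kept nuclei under 1000 UMIs, 975 in control and 664 in the cKO-labelled library, were left out of the thinned shares. Calculations in Python 3.11.15 (numpy 2.4.6, scipy 1.17.1, pandas 2.3.3, matplotlib 3.10.9) were tested on simulated data. Alternatives covered doublet removal, depth, scaling, clustering and marker gates.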

Additional observations from a re-analysis of the deposited data

Results flagged for a closer look

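The ratio between the libraries pointed in opposite directions in different classes for 3 genes, with intervals on either side of 1, and the difference between the classes was not tested. For Tnr it was 3.37 in GNP-like nuclei, from 14 and 10 UMIs, and 0.701 in GN-like nuclei. By marker gates opposite directions were not seen, with Tnr at 15.4 and 18.5 CPM in GNP-like and 19.1 and 19.6 CPM in GN-like nuclei. For Tnc it was 2.30 in GN-like nuclei and 0.357 in oligodendrocyte-like nuclei, both within or below the microglia-like interval. By marker gates Tnc was 49.9 and 61.7 CPM in GN-like nuclei, closer together, and 88.3 and 12.2 CPM in oligodendrocyte-like nuclei. For Vcan it was 1.20 in Bergmann-like nuclei and 0.491 in GNP-like nuclei. For gated GNP-like nuclei Vcan was 303 CPM in control and 490.5 CPM in the cKO-labelled library, the opposite direction. Of the 103 gated GNP-like nuclei of the cKO-labelled library, 38 lay in the GNP-like class. Tnc stood at 958 CPM in those 103 nuclei and at 20.8 CPM in the class, so the gates do not settle the direction in GNP-like nuclei. Hapln1 reached 84.0 CPM in the low-depth clusters of control, which enter no comparison of classes, above its level in any named class.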

How the results depend on the processing

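Of 199 recomputed values 172 kept their direction and stayed within counting error or 1.5 times the count, 23 moved and 4 reversed. All 4 reversals came with the class mix held at control: Tnc 0.802, Vcan 0.958, Ncan 0.996 and Cspg4 0.888. The same setting gave 1.39 for Tnr, 1.02 for Bcan, 1.11 for Ptprz1 and 1.16 for Cspg5. Thinned to 1000 UMIs, whole-library ratios were 2.53 for Tnr, 1.27 for Vcan, 1.79 for Ptprz1 and 1.59 for Cspg5, and 6 members were past 1.5-fold in place of 3; the cause was not tested. Ptprz1 was at 1.48 with no doublet removal and 1.46 with Scrublet's own threshold, each of which leaves 2 members past 1.5-fold. Without oligodendrocyte-like nuclei holding Enpp6, Bmp4 or Mag, Tnr was 1.51 over the library and 1.20 in the class, and Ptprz1 1.17 there; these genes were picked as absent from committed control nuclei, so the setting removes nuclei of the cKO-labelled library alone and a lower Tnr ratio follows from it. Without integration, Bergmann-like Tnc was 3639.6 CPM at a ratio of 0.740, Vcan 751 CPM at 1.31, and astrocyte-like Ncan 752 CPM. By marker gates Tnc was 2819.9 CPM, Vcan 969 CPM and the oligodendrocyte-like ratio of Ptprz1 0.920. With a minimum of 100 UMIs, 0 of the other tenascins, lecticans and link proteins were past 1.5-fold.

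No paired analysis was possible because each group is 1 library. Counting intervals do not cover animals, dissection or library preparation, and the class mix, the depth and the condition cannot be told apart in this design. At these depths a gene of a few CPM, such as Hapln1 or Cspg4 outside macroglia, cannot be ordered among classes.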

Other observations

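Each lectican gene here lies beside a link protein gene with no protein-coding gene between them. Hapln1 lies 43659 bases from Vcan on chromosome 13, Hapln2 lies 21519 bases from Bcan on chromosome 3 and Hapln4 lies 2222 bases from Ncan on chromosome 8. At postnatal day 1 the link protein genes were near the detection limit over both libraries, with 148 and 85 UMIs of Hapln1, 9 and 13 of Hapln2 and 8 and 8 of Hapln4. Over the 10 named classes Hapln1 and Vcan had r = -0.13 in control and 0.143 in the cKO-labelled library, from log2(CPM + 10).

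Between members, the patterns over the 10 classes were in control most alike for Bcan and Ptprz1 (r = 0.894 in control and 0.918 in the cKO-labelled library) and for Tnr and Cspg5 (0.876 and 0.867). The pair of tenascins had r = -0.09 and -0.18. Nfasc, which encodes neurofascin, a partner of tenascin-R, was highest in GABAergic-like nuclei of control at 263 CPM and in oligodendrocyte-like nuclei of the cKO-labelled library at 655 CPM, and it was picked out after its values had been seen.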
